A study of Mus musculus with 4 samples.

Results

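Hypoxia marker genes and Vegfa were followed by cell class in the immune infiltrate of a mouse melanoma, with and without Adar1 in the tumour. The 9 genes were taken by symbol: the secreted ligands Vegfa and Adm, the transcription factor subunit Hif1a, the oxygen-sensing hydroxylase gene Egln3, and Hilpda, Bnip3, Ero1l, Ndrg1 and Ankrd37. All 9 were present among the 27998 genes of the count matrix. No threshold on values was used to find them, but the list was drawn up with earlier results of these data known. The samples were 2 libraries from Adar1-null tumours (S1 and S2) and 2 from control tumours (S3 and S4). All tumours were B16-F10, a melanoma line of C57BL/6 origin, grown in C57BL/6 mice from implanted cells in matrigel and taken on day 14. Both groups were digested for 10 min at 37 °C with collagenase P and DNase I, enriched for leukocytes on an Optiprep gradient and selected on magnetic beads for CD45, so levels describe that selected suspension. Adar encodes an enzyme that edits adenosines in double-stranded RNA, and the labels give its loss for the tumours and not for the mice; how it was made is not given in the sources used here. Nothing ties the libraries of a group to separate animals, and p-values therefore measure the spread between these libraries, which may be technical.

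Cells sense oxygen through prolyl hydroxylases of the Egln family, which mark the HIF-alpha proteins for degradation by way of the von Hippel-Lindau protein. When oxygen is scarce the alpha subunit, Hif1a or Epas1, is kept, pairs with Arnt and activates genes that carry hypoxia response elements, among them glycolytic enzymes, Vegfa and several genes named here. Control of Hif1a acts mainly on its protein, which the present assay did not measure, and in myeloid cells inflammatory signals can also raise HIF target transcripts.

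The libraries held 1939 (S1), 1936 (S2), 1945 (S3) and 2749 (S4) cells after filtering, with median depths of 7918, 7618, 8788 and 7854 unique molecular identifiers (UMIs, which count captured molecules). Cells were placed in classes by marker genes that exclude the 9 genes. Macrophages with at least 5 Arg1 UMIs, called Arg1-rich macrophages, numbered 115 and 71 in the Adar1-null libraries, against 186 and 570 in the control libraries. The other classes compared were other macrophages (3091 cells in all), monocytes (578), melanoma cells (1191) and T cells (1316), and 12.3% of cells were in no class. Of the phagocytes, 148 had 3 or 4 Arg1 UMIs and 119 had 5 or 6, against 942 Arg1-rich macrophages in all. Control library S4 stood apart: its summed erythroid markers (4 haemoglobin genes) were at 46.4 to 519 CPM (the UMIs of a gene scaled to the UMI total of its library and class) in the 5 classes, against 0 to 5.41 CPM in the other 3 libraries. In 38 cases a cell barcode sequence occurred in more than 1 library. Adar was at 9.43 and 12.9 CPM in Adar1-null melanoma cells and 11.4 and 13 CPM in control melanoma cells, and tags from the 3′ end check nothing about a deletion elsewhere in the gene.

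The HIF core motif was looked for in the DNA before each gene, because the genes are read here as a group that is commonly induced by HIF. The sequences are RefSeq windows of 250 bases before a transcription start on GRCm38.p6 (mm10), and ACGTG and GCGTG were searched on both strands, so that the palindromic CACGTG counts on each strand. Windows were found for 8 of the 9 genes, all but Ndrg1, and for 6 genes a window lay wholly outside the gene's own span (Vegfa, Adm, Egln3, Hilpda, Bnip3 and Ero1l, whose RefSeq symbol is Ero1a). A match was present in 4 of these 6 windows, against 34.9% of the 19827 such windows of all genes. With the windows that reach into the gene's own span, each of the 8 genes had a match in at least 1 window. Vegfa and Hilpda, with 2 windows each, had 0 matches in the window outside the span. Of all 32851 windows 38.6% had a match, a share of windows that cannot be set against a count of genes. The second windows of Hilpda (3 matches) and Vegfa (2 matches) and the windows of Hif1a (3 matches) and Ankrd37 (4 matches) are of that kind and are not printed. The 4 windows outside the span with a match, and for contrast the Hilpda window outside the span, which has none, are printed 5′ to 3′ on the strand of the gene, with every match in capitals.
Bnip3 (chr7:138909507-138909756, minus strand): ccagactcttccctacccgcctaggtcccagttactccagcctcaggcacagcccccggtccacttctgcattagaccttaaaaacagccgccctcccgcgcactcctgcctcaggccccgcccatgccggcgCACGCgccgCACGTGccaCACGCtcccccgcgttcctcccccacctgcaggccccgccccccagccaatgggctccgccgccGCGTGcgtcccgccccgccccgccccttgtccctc
Ero1l (chr14:45318573-45318822, minus strand): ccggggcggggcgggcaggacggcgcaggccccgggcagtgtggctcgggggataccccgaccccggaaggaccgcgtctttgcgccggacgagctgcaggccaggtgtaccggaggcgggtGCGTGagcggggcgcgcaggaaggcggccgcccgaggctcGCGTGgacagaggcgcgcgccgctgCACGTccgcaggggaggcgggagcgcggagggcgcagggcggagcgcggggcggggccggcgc
Egln3 (chr12:54203875-54204124, minus strand): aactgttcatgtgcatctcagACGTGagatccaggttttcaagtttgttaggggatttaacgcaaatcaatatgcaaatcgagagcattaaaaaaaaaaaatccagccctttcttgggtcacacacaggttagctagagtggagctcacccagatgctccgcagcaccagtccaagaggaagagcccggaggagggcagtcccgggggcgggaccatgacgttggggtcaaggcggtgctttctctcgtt
Adm (chr7:110627407-110627656, plus strand): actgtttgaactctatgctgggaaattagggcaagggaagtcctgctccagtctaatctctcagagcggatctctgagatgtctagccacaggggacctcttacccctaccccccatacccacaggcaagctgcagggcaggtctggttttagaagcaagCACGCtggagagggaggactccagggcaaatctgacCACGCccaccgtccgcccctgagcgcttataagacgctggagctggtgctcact
Hilpda (chr6:29272238-29272487, plus strand): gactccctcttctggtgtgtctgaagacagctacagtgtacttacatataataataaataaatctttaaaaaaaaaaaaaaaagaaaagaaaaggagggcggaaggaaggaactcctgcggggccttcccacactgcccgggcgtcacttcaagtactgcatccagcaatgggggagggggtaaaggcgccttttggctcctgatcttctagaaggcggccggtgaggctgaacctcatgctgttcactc
The Bnip3 window, on chromosome 7, held 5 matches in 4 stretches, and the Ero1l window, on chromosome 14, held 3. At least 3 matches were present in 5.52% of all windows outside gene spans. The Adm window, on chromosome 7, held 2 matches and the Egln3 window, on chromosome 12, held 1. A match is a description of letters, and no binding was measured.

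Across the 5 classes compared, 8 of the 9 genes had their highest mean level in Arg1-rich macrophages. Hif1a was the exception, with its highest mean in T cells. With the small classes of fibroblasts, natural killer cells and dendritic cells included, Adm was higher in fibroblasts (70.8 ± 58.7 CPM, SD over 4 libraries). These levels are descriptions without a test, as the genes were chosen with earlier results of these data known.

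**Figure D1:**
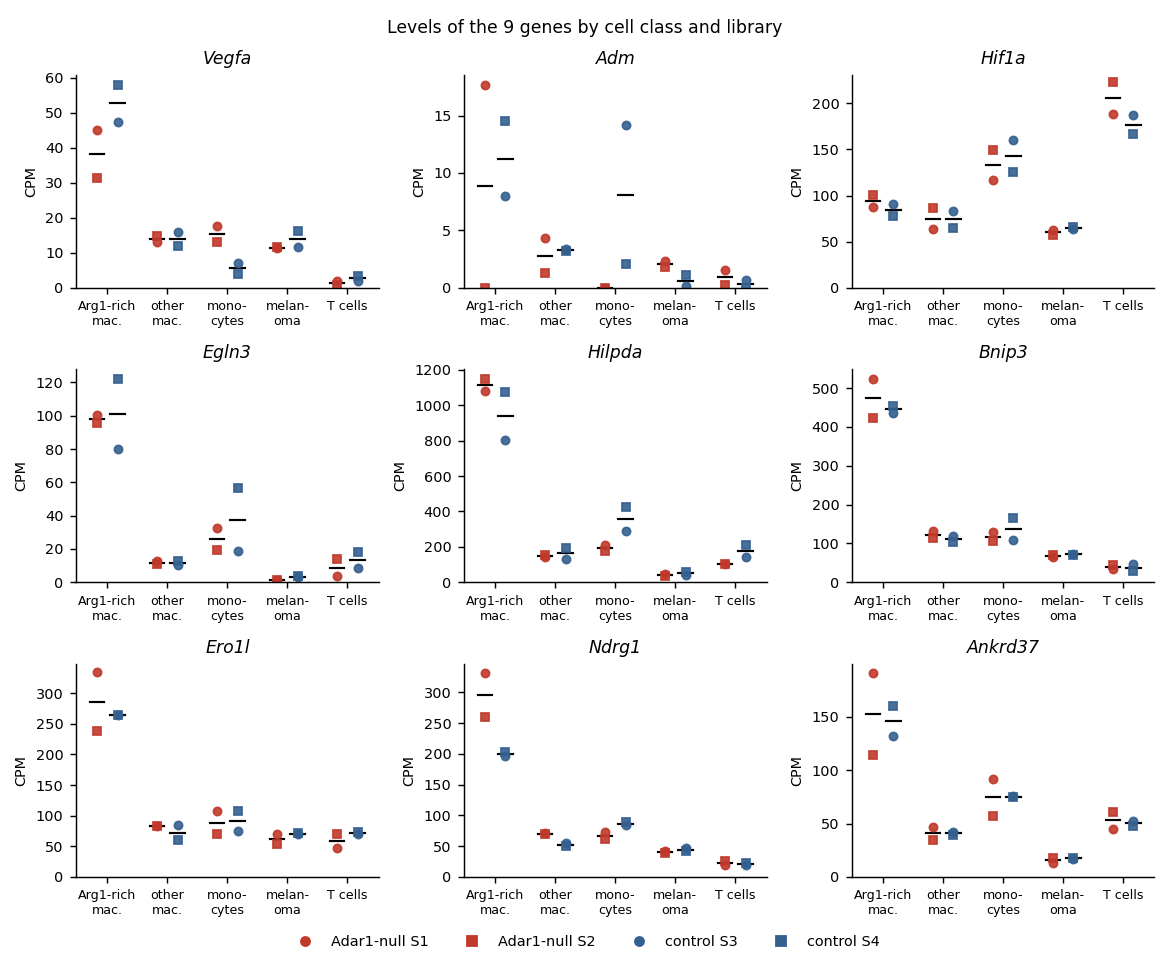
Level of each gene in CPM (vertical axis, linear, from 0) by cell class (horizontal axis), with 1 point per library and a bar at the mean of each group of 2; Adar1-null libraries are red and left of the blue control libraries. Hilpda lies between 802 and 1149 CPM in Arg1-rich macrophages and at or under 423 CPM in every library of the other 4 classes drawn, while Hif1a is highest in T cells.

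Among the secreted ligands, Vegfa, the main growth factor of blood vessel endothelium, was at 44.9 and 31.3 CPM in Adar1-null and 47.3 and 58.0 CPM in control Arg1-rich macrophages. All 4 of these values lay above every library of the other 4 classes compared, where the next highest means were 13.9 ± 1.76 CPM in other macrophages and 12.7 ± 2.41 CPM in melanoma cells (SD, n = 4 libraries). Other macrophages, melanoma cells (11.2 to 16.3 CPM) and monocytes (4.03 to 17.6 CPM) overlapped, and T cells were lowest at 1.98 ± 1.03 CPM. The small classes reached into the Arg1-rich range: natural killer cells had 7.54 to 48.0 CPM of Vegfa, from 2 to 5 UMIs a library, and fibroblasts had 0 to 38.2 CPM, from 0 to 14 UMIs. Adm, which encodes the vasodilator peptide adrenomedullin, was scarce: 17 and 0 UMIs were counted in Adar1-null and 14 and 78 in control Arg1-rich macrophages. Its mean of 10.0 ± 7.82 CPM there overlapped that of monocytes, 4.05 ± 6.83 CPM. The few fibroblasts held more Adm per cell, with 0.250 and 0.80 UMIs per cell in Adar1-null and 1.0 and 2.24 in control libraries, from 4, 15, 12 and 25 cells in S1 to S4.

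Among the regulators, Hif1a averaged 191 ± 23.3 CPM in T cells, 138 ± 20.4 CPM in monocytes and 89.4 ± 9.53 CPM in Arg1-rich macrophages (SD, n = 4 libraries). Those classes were separate in every library, whereas Arg1-rich macrophages overlapped other macrophages (74.4 ± 12.1 CPM), which overlapped melanoma cells (62.4 ± 3.70 CPM). Egln3, the prolyl hydroxylase of the family that is itself strongly induced by HIF, showed another order: 99.6 ± 17.2 CPM in Arg1-rich macrophages, 31.8 ± 17.6 CPM in monocytes, 11.6 ± 1.33 CPM in other macrophages, 11.1 ± 6.28 CPM in T cells and 2.35 ± 1.01 CPM in melanoma cells. Only other macrophages and T cells overlapped among neighbours in that order. The Arg1-rich class had no limit on C1q complement transcripts, and its 697 C1q-high cells (split given below) overlapped monocytes in Egln3. Their libraries had 38.3 to 79.3 CPM, against 18.9 to 56.4 CPM in monocytes.

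Hilpda, whose product sits on lipid droplets and inhibits the lipase Atgl, averaged 1027 ± 154 CPM in Arg1-rich macrophages and 276 ± 109 CPM in monocytes (SD, n = 4 libraries). Monocytes overlapped other macrophages (156 ± 27.5 CPM), which overlapped T cells (139 ± 51.4 CPM), and melanoma cells were lowest at 46.9 ± 8.68 CPM. Bnip3, a receptor that marks mitochondria for autophagy, averaged 459.8 ± 44.6 CPM in Arg1-rich macrophages, against 127 ± 27.5 CPM in monocytes and 38.5 ± 8.65 CPM in T cells. Ero1l, an oxidase of the endoplasmic reticulum that supports disulphide bond formation, averaged 275 ± 41.1 CPM there, while the other 4 classes overlapped from neighbour to neighbour at means of 64.7 to 90.0 CPM. Ndrg1, a stress-responsive gene induced by low oxygen, averaged 247 ± 62.6 CPM in Arg1-rich macrophages and 21.4 ± 2.78 CPM in T cells. Ankrd37, an ankyrin repeat gene known as a HIF target, averaged 149 ± 33.7 CPM in Arg1-rich macrophages, 74.9 ± 14.3 CPM in monocytes and 16.5 ± 2.21 CPM in melanoma cells.

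In 7 of the 9 genes, all but Adm and Hif1a, every Arg1-rich library lay above every library of the other 4 classes compared. Of all 27998 genes, low ones included, 175 did so. The small classes and the cells in no class took no part in these counts or those that follow. Fibroblasts reached 237 CPM of Ndrg1 (lowest Arg1-rich library 196 CPM) and natural killer cells 144 CPM of Ankrd37 (114 CPM). Cells in no class reached 34.1 CPM of Vegfa (31.3 CPM), 115 CPM of Egln3 (80.3 CPM) and 124 CPM of Ankrd37. None of these groups reached the Arg1-rich range for Hilpda, Bnip3 or Ero1l. For Egln3 the separation from monocytes did not hold for the C1q-high Arg1-rich cells alone. Among genes that averaged at least 20 CPM in the other 4 classes, a filter set after the data were seen in which the level in Arg1-rich macrophages takes no part, the pattern was present in 5 of 6 of the genes followed (Hilpda, Bnip3, Ero1l, Ndrg1 and Ankrd37, but not Hif1a), beside 1.98% of 5363. Among genes of the pathway outside the 9 that met the same filter, it was present in 11 of 15 glycolysis and glucose transport genes, 6 of 16 other HIF targets, 1 of 5 HIF regulators (Egln1) and 0 of 6 angiogenic ligands and receptors. The glucose transporter gene Slc2a1 averaged 245 ± 25.6 CPM in Arg1-rich macrophages and 109.8 ± 17.2 CPM in monocytes, and the lipid droplet gene Plin2 averaged 1351 ± 188 and 452 ± 75.3 CPM in the same classes. Car9, a HIF target in many tumours, had its highest mean of the 5 classes compared in melanoma cells instead, at 28.3 ± 8.06 CPM. The HIF alpha subunit Epas1 stayed at or under 9.0 CPM on average in each of these 5 classes.

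The genes varied together to differing degrees, apart from Hif1a. Over 20 points, 5 classes in each of 4 libraries, Pearson's r of log2 levels lay between 0.73 and 0.98 for all pairs among Egln3, Hilpda, Bnip3, Ero1l, Ndrg1 and Ankrd37. Vegfa correlated with those 6 genes at 0.51 to 0.88. The scarce Adm correlated at 0.52 to 0.63 with the genes other than Hif1a. Hif1a correlated with the other 8 genes at -0.55 to 0.32. Points of a library share its preparation and sequencing depth, and the 4 Arg1-rich points lie far from the rest, so these are descriptions. By the same measure, the genes closest to the mean of the 9 were Slc2a1 (r = 0.968), Arg1 (0.961, the gene that defined the class), Esd (0.933), Cxcl1 (0.931) and Il7r (0.930), out of 5233 compared. For Vegfa they were Appl2 (0.926), Eif4e (0.914), Pgam1 (0.892), S1pr2 (0.884) and Pgm2 (0.883).

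Arg1 encodes arginase 1, an enzyme of alternatively activated and tumour-associated macrophages. Grading monocytes and macrophages together by Arg1 UMIs per cell gave a stepwise picture. Hilpda averaged 129 CPM in cells with 0 Arg1 UMIs, 378 CPM with 1 to 4, 887 CPM with 5 to 19 and 1194 CPM with 20 or more, and it was higher in each successive bin in 4 of 4 libraries. The same held in 4 of 4 libraries for Bnip3, with bin means of 99.7, 212, 377 and 548 CPM, and for Ero1l, with 68.2, 131, 234 and 323 CPM. Egln3 and Ndrg1 did so in 3 libraries, Vegfa and Ankrd37 in 2, and Adm and Hif1a in 0. Hif1a was level, at 80.4, 85.9, 93.8 and 82.5 CPM. The smallest bin held 21 cells (S2, 20 or more Arg1 UMIs).

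**Figure D2:**
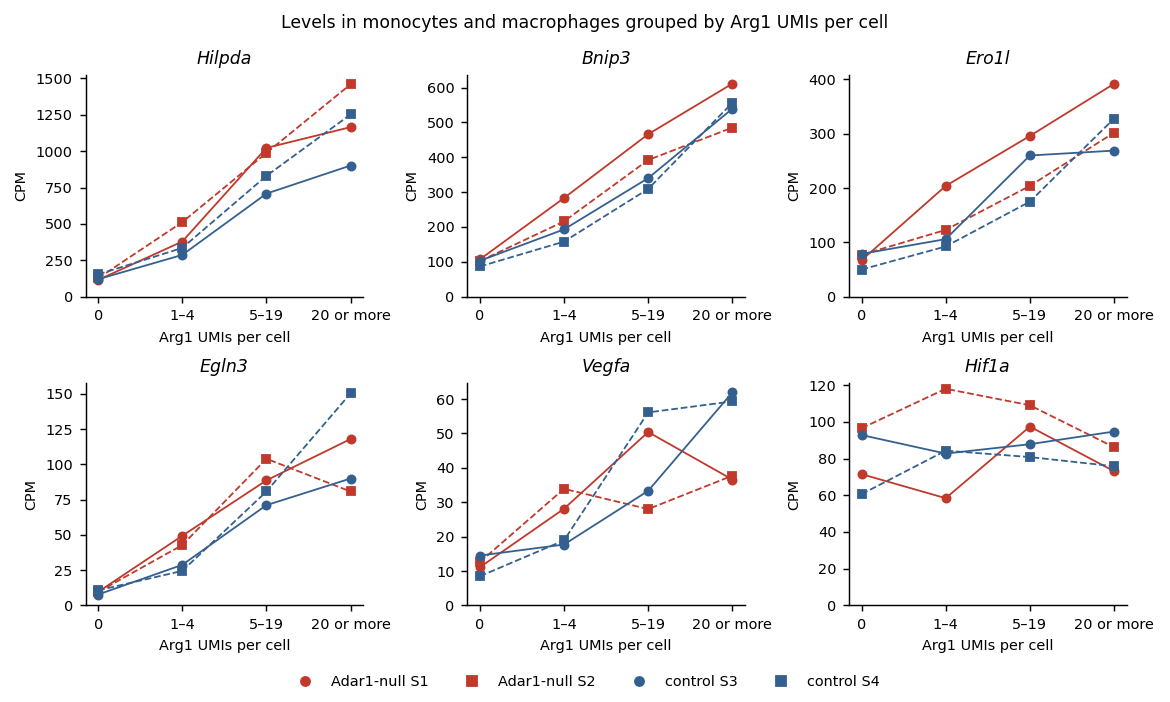
Level in CPM (vertical axis, from 0) of 6 genes in monocytes and macrophages binned by Arg1 UMIs per cell (horizontal axis), with 1 line per library; Adar1-null libraries are red, control libraries blue. Hilpda, Bnip3 and Ero1l are higher in each successive bin in all 4 libraries, and Hif1a shows no such order.

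Within Arg1-rich macrophages the genes differed with C1q, the complement genes of mature macrophages. The 245 cells under 20 C1qa, C1qb and C1qc UMIs per 10000 had 1778 ± 363 CPM of Hilpda, and the 697 cells at or above it had 836 ± 105 CPM (SD, n = 4 libraries). Egln3 was at 239.6 ± 70.4 and 63.6 ± 19.4 CPM, and Bnip3 at 669.9 ± 107 and 404 ± 74.3 CPM, in C1q-low and C1q-high cells in that order. The libraries of the C1q-low and C1q-high cells did not overlap for these 3 genes. They did not overlap for Ero1l, Ankrd37 and Hif1a either, with Hif1a at 129.7 ± 30.7 and 78.8 ± 8.84 CPM. Those of Ndrg1 and Adm overlapped. Within each library Ndrg1 was still higher in C1q-low cells, at 378, 639, 220.4 and 332 CPM in S1 to S4. The C1q-high cells had 318, 146, 191 and 174 CPM. Adm was lower in C1q-low cells of S1, S3 and S4 and at 0 in both parts of S2. The share of all genes without overlap was not counted. Vegfa did not follow the genes without overlap, with 48.8 ± 26.8 CPM in C1q-low and 44.6 ± 9.23 CPM in C1q-high cells, whose libraries overlapped. For Egln3 the C1q-low cells (179 to 312 CPM) lay above every monocyte library (18.9 to 56.4 CPM). The C1q-high cells (38.3 to 79.3 CPM) overlapped monocytes, although within each library they were higher. They lay above every library of other macrophages (10.2 to 12.9 CPM). The C1q-low share of Arg1-rich cells was 28.7% and 29.6% in the Adar1-null libraries and 24.7% and 25.4% in the control libraries.

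Depth differed between classes, so each cell was also thinned to 3500 UMIs. At that depth 79.4% of Arg1-rich macrophages held a Hilpda UMI, with libraries from 73.1% to 82.6%. The share was 24.7% in other macrophages, 25.8% in monocytes, 32.4% in T cells and 12.1% in melanoma cells. Monocytes had more Hilpda than T cells in CPM but not by this share, so no order among the classes other than Arg1-rich macrophages is read from it. Free RNA in droplets gives UMIs to all cells, no class here is known to lack Hilpda, and its part in these shares was not tested. Before thinning, the median depth was 7525 UMIs in Arg1-rich macrophages and 8704 in T cells. Hilpda UMIs per Arg1 UMI were 0.430 in S1 and 0.263 in S4 Arg1-rich macrophages. In T cells of the same libraries they were 7.77 (from 43 Arg1 UMIs) and 10.8 (from 60). The gate of at least 5 Arg1 UMIs itself lowers this ratio in Arg1-rich macrophages, so nothing on free RNA is read from it. T cells of S2 and S3 held 1 and 5 Arg1 UMIs, too few for a ratio. For Vegfa the share was 16.1% in Arg1-rich macrophages and 0.608% in T cells. Among the 5 classes the share was highest in Arg1-rich macrophages for 8 of the 9 genes, and without thinning for 7.

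The design sets infiltrates of Adar1-null tumours against those of control tumours, and the genes were therefore compared between Adar1-null and control libraries within each class. The quasi-likelihood test of edgeR, adjusted by Benjamini-Hochberg over all genes tested in a class, called 0 of the 9 genes at an adjusted p of 0.05 in any class. DESeq2 also called 0 in each class. In bulk sums of a class, fewer cells of a subtype and less RNA per cell cannot be told apart.

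In Arg1-rich macrophages 0 of 9 genes were called, beside 0% of the 7268 genes tested, and the groups did not overlap for 3 of 9, beside 33.5%. Hilpda was at 1079 and 1149 CPM in Adar1-null and 802 and 1077 CPM in control libraries, a log2 change of 0.26 ± 0.24 (SE, n = 2 and 2; adjusted p = 0.987 by edgeR). Ndrg1 was at 331 and 259.7 CPM in Adar1-null and 196 and 203 CPM in control libraries. Its log2 change was 0.59 ± 0.21 (adjusted p = 0.982 by edgeR). It was the only one of the 9 with an unadjusted p under 0.05 by edgeR, beside 157 higher and 154 lower of all 7268 genes. For both genes the Adar1-null libraries lay above the control libraries without overlap, as for 14.4% of all genes tested. Vegfa was lower without overlap, at 44.9 and 31.3 CPM against 47.3 and 58.0 CPM, with a log2 change of -0.41 ± 0.27 (adjusted p = 0.982 by edgeR), and 19.1% of genes tested were lower without overlap. The 10 macrophage markers were at 12006 and 13972 CPM in Adar1-null and 13645 and 20825 CPM in control Arg1-rich macrophages, and 6 neutrophil markers at 14.6 and 49.7 CPM against 23.9 and 77.1 CPM. The other 6 genes overlapped, with log2 changes of -0.12 (Adm) to 0.18 (Hif1a).

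In other macrophages 0 of 9 were called, beside 0% of 10473 genes. Ndrg1 was at 70.5 and 69.8 CPM in Adar1-null and 54.3 and 50.6 CPM in control libraries, a log2 change of 0.43 ± 0.16 (adjusted p = 0.830 by edgeR). It was the only gene of the 9 without overlap, against 36.7% of all genes in either direction (16.9% higher and 19.8% lower). Hilpda was at 145 and 154 CPM in Adar1-null and 131 and 195 CPM in control libraries, and Vegfa at 12.9 and 14.7 CPM against 15.9 and 12.0 CPM. The log2 changes of the 8 overlapping genes lay between -0.23 and 0.22.

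In monocytes 0 of the 8 genes that passed the filter on low counts were called, beside 0.0166% of 6020 genes. Hilpda was at 210.1 and 178 CPM in Adar1-null and 291 and 423 CPM in control monocytes. Its log2 change was -0.89 ± 0.21 (adjusted p = 0.232 by edgeR), and the libraries did not overlap. Without S3, the change was -1.15 and passed (adjusted p = 1.15e-05 by edgeR), and without S4 it was -0.58 and did not pass (adjusted p = 0.313 by edgeR). Summed macrophage markers (10 genes) in these cells were at 4208 and 3215 CPM in Adar1-null and 2629 and 7229.7 CPM in control libraries, and 6 neutrophil markers at 48.8 and 51.0 CPM against 44.8 and 306 CPM. When monocytes with a UMI of the neutrophil genes Cxcr2, S100a8 or Retnlg were left out, a choice made after seeing the data, the Hilpda change was -0.97 (adjusted p = 0.0627 by edgeR). Endothelial markers (6 genes) were at 13.6 and 35.5 CPM against 186 and 66.5 CPM, and 4 plasmacytoid dendritic cell markers at 106 and 113 CPM against 255 and 272 CPM, both lower in Adar1-null without overlap. At 3500 UMIs per cell a Hilpda UMI was present in 26.1% and 20.4% of Adar1-null and 28.6% and 35.8% of control monocytes. The part of these markers and of free RNA in the result was not tested.

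Vegfa in monocytes rested on 13 and 17 UMIs in Adar1-null and 6 and 2 in control libraries, which gave 17.6 and 13.1 CPM against 7.08 and 4.03 CPM. Its log2 change was 1.31 ± 0.61 (adjusted p = 0.855 by edgeR), and with clusters in place of marker gates it was -0.47. Ndrg1 was lower without overlap, at 73.2 and 61.0 CPM against 83.7 and 88.7 CPM (log2 change -0.38 ± 0.23). In all, 3 of the 8 tested genes did not overlap, beside 35.4% of all genes tested (17.1% lower and 18.3% higher). Adm, which did not pass the filter, had 0 and 0 UMIs in Adar1-null and 12 and 1 UMIs in control monocytes, and S3, with the 12, was also the library with 186 CPM of endothelial markers.

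In melanoma cells, whose groups differ by the labelled Adar1 genotype itself, 0 of 9 genes were called, beside 0.0265% of 11332 genes. Egln3 was at 1.47 and 1.52 CPM in Adar1-null and 2.97 and 3.46 CPM in control cells, a log2 change of -1.11 ± 0.34 (adjusted p = 0.413 by edgeR). Adm had 24 and 17 UMIs in Adar1-null and 1 and 12 in control cells, a log2 change of 1.70 ± 0.55 (adjusted p = 0.607 by edgeR), which was 4.05 without S4 and 0.98 without S3. The remaining 7 genes had log2 changes of -0.31 (Vegfa) to -0.08 (Bnip3). Vegfa was at 11.2 and 11.7 CPM in Adar1-null and 11.6 and 16.3 CPM in control cells, so the groups overlapped. Hif1a and Bnip3 were lower without overlap, as was Egln3, and Adm was higher, which makes 4 of 9 genes apart, beside 32.5% of all genes tested (15.0% lower and 17.4% higher). Melanoma markers were at 7506 and 7257 CPM in Adar1-null and 7509.9 and 6878 CPM in control cells, the 10 macrophage markers at 512 and 416 CPM against 541 and 943 CPM, and the neutrophil markers at 0.491 and 0.542 CPM against 0.228 and 35.4 CPM.

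In T cells 0 of the 7 genes tested were called, beside 0.0319% of 9415 genes. Hilpda was at 104 and 100.3 CPM in Adar1-null and 141 and 211 CPM in control T cells. The libraries did not overlap, as for 12.9% of genes lower in Adar1-null, with a fitted change of -0.83 ± 0.19 on the log2 scale (adjusted p = 0.503 by edgeR). It passed without S1 (-0.85, adjusted p = 0.00220 by edgeR) and without S3 (-1.10, adjusted p = 0.000558 by edgeR), and not without S4 (-0.50, adjusted p = 0.399 by edgeR). The 10 macrophage markers in T cells were at 342 and 231 CPM in Adar1-null and 256 and 706 CPM in control libraries, and the neutrophil markers at 2.80 and 3.80 CPM against 2.02 and 158 CPM. Fibroblast markers (6 genes) were at 394 and 70.4 CPM in Adar1-null and 1.69 and 4.58 CPM in control T cells, higher in Adar1-null without overlap. The part of these markers and of free RNA in the Hilpda result was not tested. At 3500 UMIs per cell a Hilpda UMI was present in 26.4% and 24.9% of Adar1-null and 30% and 53.1% of control T cells, so S4 stood apart from the other 3 libraries. Without T cells holding at least 5 C1q UMIs per 10000, likewise chosen after seeing the data, the change was -0.89 (adjusted p = 0.575 by edgeR). Hif1a was higher without overlap, at 188 and 223 CPM against 187 and 167 CPM, with a log2 change of 0.18 ± 0.12 (adjusted p = 0.910 by edgeR). These 2 of the 7 tested genes were apart, beside 35.9% of all genes tested (12.9% lower and 23.0% higher).

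**Figure D3:**
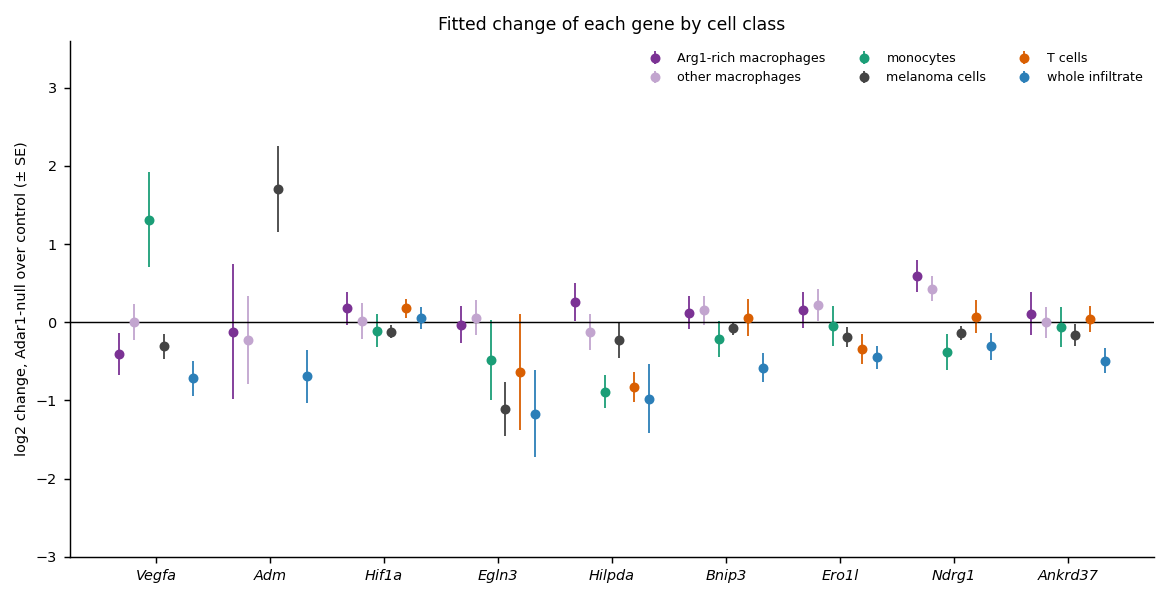
Fitted log2 change of Adar1-null over control with its standard error (vertical axis) for each gene (horizontal axis), with 1 colour per cell class and for the whole infiltrate (n = 2 libraries per group). No point passed the adjusted test; Hilpda lies at -0.89 in monocytes, -0.83 in T cells and 0.26 in Arg1-rich macrophages. Vegfa and Adm are not drawn in T cells, nor Adm in monocytes, where they did not pass the filter on low counts.

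Whether the genotype contrast differed between classes was tested by an interaction term in fits that kept each library as a block, for the pairs among Arg1-rich macrophages, monocytes and melanoma cells. For Hilpda the contrast in Arg1-rich macrophages exceeded that in monocytes by 1.13 ± 0.20 on the log2 scale (adjusted p = 0.0918 by edgeR), beside 0% of 7019 genes called. The adjusted p lay under 0.05 in 4 alternatives: 0.00137 with no filter, 0.0490 when only genes passing the filter in each class were tested, 0.00100 without S1 and 0.0439 without S3 (all by edgeR). It was 0.0526 without S2, 0.202 without S4 and 1.0 without the library block. For Ndrg1 the same difference was 0.93 ± 0.24 (adjusted p = 0.413 by edgeR), and against melanoma cells it was 0.72 ± 0.21 (adjusted p = 0.194 by edgeR), beside 0.0750% of 11996 genes called. Of the 9 genes, 1 difference passed, Adm in monocytes less melanoma cells, where 0.360% of 11679 genes were called. It rested on 0 UMIs in both Adar1-null monocyte libraries against 12 and 1 in control monocytes, so its size is not interpreted.

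Summed over the whole infiltrate, 0 of 9 genes were called, beside 0% of 13467 genes. At an unadjusted p under 0.05 by edgeR there were 4, all lower (Vegfa, Bnip3, Ero1l and Ankrd37). Of all 13467 genes, 824 were lower and 401 higher at that level. The fitted log2 change was negative for 8 of the 9, all but Hif1a, with a median of -0.58, against 0.01 over all genes tested. Vegfa was at 12.7 and 10.7 CPM in Adar1-null and 14.9 and 21.7 CPM in control libraries, with a log2 change of -0.72 ± 0.23 (adjusted p = 0.543 by edgeR). Hilpda was at 141 and 122 CPM in Adar1-null and 154 and 337 CPM in control libraries, with a log2 change of -0.98 ± 0.44 (adjusted p = 0.582 by edgeR). In 7 of the 9 genes both Adar1-null libraries lay below both control libraries, as in 14.5% of all genes tested, where 34.4% were higher and 48.9% apart in either direction. S4 was the highest library in each of these 7. Without S4 the log2 change was -0.28 for Hilpda and -0.27 for Egln3, and without S3 it was -1.44 and -1.72 and passed for both (adjusted p = 0.0273 and 0.0267 by edgeR).

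The share of Arg1-rich cells moved with these sums. Arg1-rich macrophages made up 13% (95% interval 10.9 to 15.4) and 7.75% (6.10 to 9.68) of monocytes and macrophages in S1 and S2, against 17.8% (15.5 to 20.3) and 32.3% (30.1 to 34.5) in S3 and S4. The intervals are exact binomial and cover counting error only. The means were 10.4 ± 3.72% in Adar1-null and 25.0 ± 10.2% in control libraries (SD, n = 2 each), a difference of -14.7 points (exact two-sided permutation p = 0.333, the smallest that 2 against 2 libraries allow). Without S4 the difference was -7.42 points. With clusters in place of gates the groups overlapped, and the difference was -10.6 points (exact permutation p = 0.667). Arg1-rich macrophages held 31.3% and 21.9% of all Hilpda UMIs in the Adar1-null libraries and 36.3% and 52.6% in the control libraries, from 5.93% and 3.67% of kept cells against 9.56% and 20.7%. For Vegfa these shares were 14.4% and 6.77% against 22.1% and 43.9%, and for Hif1a 4.13% and 2.17% against 6.55% and 15.5%. How far the share of Arg1-rich cells accounts for the sums was not tested.

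**Figure D4:**
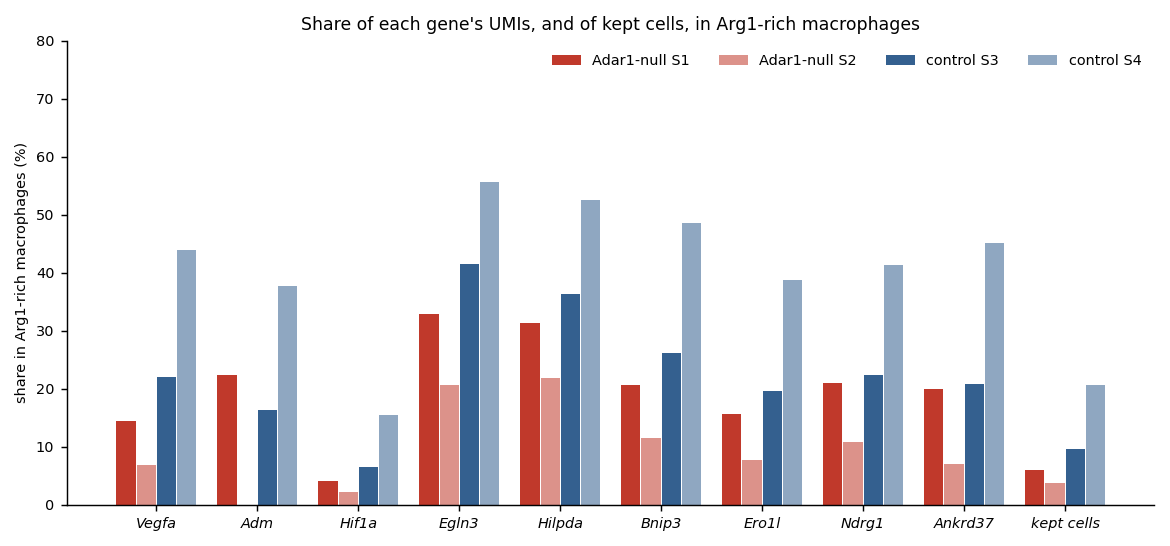
Percent of each gene's UMIs that were in Arg1-rich macrophages (vertical axis, from 0) in each library, with the percent of kept cells in the last group; Adar1-null libraries are red and left of the blue control libraries. Control S4 has the tallest bar for every gene, 55.6% for Egln3, and for the kept cells, 20.7%.

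The other genes of the pathway were counted in the same way, and 0 were called in any class by edgeR. These lists were chosen with earlier results of these data known. In Arg1-rich macrophages 16 of 17 tested glycolysis and glucose transport genes had a log2 change above 0 (median 0.36), and 9 of the 17 were higher without overlap. Of all 7268 genes, 3685 had a change above 0 (median 0.00) and 14.4% were higher without overlap. Pgk1, the ATP-forming phosphoglycerate kinase, was at 85.6 and 118 CPM in Adar1-null and 44.4 and 48.3 CPM in control Arg1-rich macrophages, with a log2 change of 1.13 ± 0.22 (adjusted p = 0.982 by edgeR). In other macrophages 16 of 20 such genes were positive with a median of 0.37, beside 5217 of all 10473 genes tested. In monocytes, melanoma cells and T cells the medians of such genes were -0.11, -0.05 and -0.05. Other HIF targets had medians of 0.21 in Arg1-rich macrophages, with 22 of 29 positive, and -0.09 in monocytes, with 7 of 21 positive. Of all 6020 genes tested in monocytes, 2891 were positive. HIF regulators had medians of 0.07 in Arg1-rich macrophages and -0.15 in monocytes, and angiogenic ligands and receptors of -0.19 and 0.12. The 9 genes themselves had medians of 0.12 in Arg1-rich macrophages, 0.02 in other macrophages, -0.16 in monocytes, -0.16 in melanoma cells and 0.04 in T cells.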

How the data were processed

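Single-cell messenger RNA was measured by droplet 10x 3′ v2 sequencing in 4 libraries. The authors deposited 1 matrix of raw UMI counts, whole numbers without normalization, that holds every library. The tools Cell Ranger and Seurat 2.2.0 and the build mm10 are named, with no role, in the submitters' processing notes, and other upstream settings were not stated. Barcode names give the group and library (S1 to S4) but not the replicate numbers of the sample titles.

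Kept cells had a minimum of 500 detected genes and no more than 10% of UMIs from mitochondria. Scrublet (scanpy 1.11.5) scores above 0.1 were removed as doublets, which left 8569 of 8838 barcodes. Classes were gated per cell on marker genes, with limits set after the data had been seen. Melanoma cells needed 5 of 8 markers and 20 marker UMIs per 10000, Arg1-rich macrophages 4 of 10 macrophage markers and 5 Arg1 UMIs, other macrophages 5 markers and 20 C1q UMIs per 10000, monocytes 3 of 9 markers and 1 Ly6c2 UMI, and T cells 3 markers. Monocytes also had to lie under the C1q limit of other macrophages, and Arg1-rich macrophages had no C1q limit. Trac, Trbc1 and Trbc2 were not among the genes used. No correction for free RNA was made.

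For testing, the deposited counts of a class were added up within a library, so that libraries and not cells are the replicates. Sums were fitted with edgeR 4.0.16 in R 4.3.3 (TMM, default filter on low counts, robust quasi-likelihood, Benjamini-Hochberg over all genes tested), with DESeq2 1.42.0 as an alternative. The fits were also run on simulated counts, with large known changes set in genes above a minimum count. Smaller changes, and changes in genes of fewer UMIs, were not simulated. Alternatives were Leiden clusters made without the 9 genes and the pathway lists (leidenalg 0.10.2), stricter gates, doublets kept, other scaling, no filter, equal numbers of cells and each library left out. Levels are CPM; correlations used log2(CPM + 10) over genes of at least 20 CPM on average. Every one of the 9 genes is named in each class, and the 5 most alike genes are named for Vegfa and for the mean of the 9; of other pathway genes, those past the adjusted test were to be named, and there were 0. The pathway genes named with values were chosen after their values were seen. The 9 genes and the lists were chosen with earlier results of these data known.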

Additional observations from a re-analysis of the deposited data

Results flagged for a closer look

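For Adm the genotype contrast differed between monocytes and melanoma cells by a test of the difference itself, at -10.67 on the log2 scale (adjusted p = 0.00845 by edgeR). The value depends on the model's treatment of 0 UMIs in S1 and S2 monocytes, against 12 in S3 and 1 in S4, and is no measure of size. Endothelial markers in monocytes were at 13.6 and 35.5 CPM in Adar1-null and 186 (S3) and 66.5 CPM in control libraries, and their part in the result was not tested. It did not pass without the library block (adjusted p = 0.720 by edgeR) or without S1, S2 or S3 (adjusted p = 0.416, 0.833 and 0.822 by edgeR), and the gene was not tested when each class had to pass the filter on its own.

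In 5 genes the Adar1-null and control libraries were apart in opposite directions in different classes. Adm is one, lower in monocytes and higher in melanoma cells. In each of the 5 classes, 32.5% to 36.7% of all genes tested were apart in either direction. How many of all genes were apart in opposite directions was not counted. Hilpda had a log2 change of 0.26 in Arg1-rich macrophages, -0.89 in monocytes and -0.83 in T cells; Arg1-rich macrophages less monocytes gave 1.13 (adjusted p = 0.0918 by edgeR), and the difference from T cells was not tested. Ndrg1 was at 0.59 in Arg1-rich macrophages, 0.43 in other macrophages and -0.38 in monocytes; Arg1-rich macrophages less monocytes gave 0.93 (adjusted p = 0.413 by edgeR), and other macrophages less monocytes was not tested. Vegfa was at -0.41 in Arg1-rich macrophages and 1.31 in monocytes, a difference of -1.79 ± 0.56 with an adjusted p = 0.782 by edgeR. Hif1a was at -0.12 in melanoma cells and 0.18 in T cells, and this difference was not tested.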

How the results depend on the processing

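Of 51 log2 changes of the 9 genes, 25 kept their direction under every alternative that gave a value; the cause of the reversals in the other 26 was not tested. No paired analysis was possible because the barcode names carry no replicate numbers of the sample titles. With clusters in place of gates the direction turned in Arg1-rich macrophages for Adm (0.01), Egln3 (0.18) and Bnip3 (-0.09), in other macrophages for Vegfa (0.11), Hif1a (-0.02), Egln3 (-0.30) and Ankrd37 (-0.03), in monocytes for Vegfa (-0.47) and Ndrg1 (0.26), and in T cells for Ndrg1 (-0.14) and Ankrd37 (-0.05). With a stricter gate it turned for Egln3 in Arg1-rich macrophages (0.22), for Vegfa (0.0048), Egln3 (-0.23) and Ankrd37 (-0.09) in other macrophages, and for Ero1l (0.17) and Ankrd37 (0.10) in monocytes. With equal numbers of cells it turned for Ankrd37 in Arg1-rich macrophages (-0.07), for Hif1a (-0.02), Egln3 (-0.02) and Ankrd37 (-0.01) in other macrophages, and for Egln3 (0.02), Bnip3 (0.26), Ero1l (0.30) and Ankrd37 (0.36) in monocytes. In other macrophages Ankrd37 was at -0.01 with doublets kept and -0.0018 with no filter, and Vegfa at 0.0039 with DESeq2 size factors and 0.0037 by DESeq2. Ndrg1 in T cells was at -0.12 without cells holding C1q UMIs, an alternative chosen after seeing the data.

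Leaving out each library in turn turned the direction in these ranges. In Arg1-rich macrophages they were -7.96 to 0.60 for Adm, -0.30 to 0.30 for Egln3, -0.08 to 0.28 for Bnip3, -0.17 to 0.38 for Ero1l and -0.37 to 0.43 for Ankrd37. In other macrophages they were -0.20 to 0.20 for Vegfa, -1.35 to 0.38 for Adm, -0.23 to 0.23 for Hif1a, -0.09 to 0.21 for Egln3, -0.39 to 0.20 for Hilpda, -0.0002 to 0.47 for Ero1l and -0.21 to 0.18 for Ankrd37. In monocytes they were -0.31 to 0.09 for Hif1a, -1.21 to 0.40 for Egln3, -0.53 to 0.11 for Bnip3, -0.34 to 0.24 for Ero1l and -0.38 to 0.29 for Ankrd37. In melanoma cells they were -0.43 to 0.01 for Hilpda, -0.42 to 0.0032 for Ero1l and -0.39 to 0.05 for Ankrd37. In T cells they were -0.26 to 0.47 for Bnip3, -0.14 to 0.25 for Ndrg1 and -0.20 to 0.24 for Ankrd37, and in the whole infiltrate -0.11 to 0.20 for Hif1a.

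With no filter, 2 of the 9 genes were called in monocytes (Hilpda and Adm) and 1 in T cells (Hilpda). Leaving out a library in turn gave 0 to 1 called in monocytes, 0 to 1 in T cells and 0 to 2 in the whole infiltrate. Differences between classes called 1 of the 9 genes, 0 without the library block, 2 with no filter and 0 to 2 with a library left out; when each class had to pass the filter, an alternative chosen after seeing the data, the 1 called was Hilpda in place of Adm. Counts over all genes moved more. In Arg1-rich macrophages they were 0, against 1 by DESeq2, 38 with no filter and 0 to 67 with a library left out, and in other macrophages 0, against 31, 1 and 0 to 131. In monocytes they were 1, against 0 by DESeq2, 105 with no filter, 0 with clusters, 6 without cells holding neutrophil UMIs and 12 to 232 with a library left out. In melanoma cells they were 3, against 75 with no filter, 29 with clusters, 12 with doublets kept and 3 to 81 with a library left out. In T cells they were 3, against 13 by DESeq2, 172 with no filter, 9 with clusters, 10 with equal numbers of cells and 4 to 154 with a library left out. In the whole infiltrate they were 0, against 89 by DESeq2, 1 with no filter and 0 to 140 with a library left out. Fits with 1 library in a group assume that it varies like the others. The count of 8 genes highest in Arg1-rich macrophages among the 5 classes held with clusters, with the stricter gate and without each library.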

Other observations

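Pgk1 had a positive log2 change in each of the 5 classes and in the whole infiltrate, at 1.13 in Arg1-rich macrophages, 1.36 in other macrophages, 1.23 in monocytes, 0.88 in melanoma cells, 0.62 in T cells and 0.78 in the whole infiltrate, and passed the adjusted edgeR test in none. In T cells Pgk1 was at 42.7 and 56.3 CPM in Adar1-null and 34.4 and 28.1 CPM in control libraries. Gapdh, another glycolytic gene, was at 611 and 619.8 CPM in Adar1-null T cells and 833 and 872 CPM in control T cells (log2 change -0.51 ± 0.11, adjusted p = 0.211 by edgeR). Thbs1, an inhibitor of blood vessel growth, averaged 272 ± 144 CPM in Arg1-rich macrophages, 239 ± 114 CPM in monocytes and 40.2 ± 14.5 CPM in other macrophages (SD, n = 4 libraries). Among the 5 classes compared, Nrp1, a co-receptor of the Vegfa protein, was highest on average in other macrophages, at 213 ± 56.6 CPM.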
